A study of Mus musculus with 40 samples.

Results

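The T cell receptor complex and its coreceptors were examined in CT26 tumors as 10 genes, the CD3 chains Cd3e, Cd3d and Cd3g, the zeta chain Cd247, the kinases Lck and Zap70, the adaptor Lat, and the coreceptors Cd8a, Cd8b1 and Cd4. The members were chosen by symbol among the 54087 genes of the count table, and all 10 were found and passed the filter on low counts. CT26 is a colon carcinoma cell line of BALB/c mice, and RNA was sequenced from whole subcutaneous tumors of 40 mice, 5 in each of 8 groups. Each mouse received 1000000 tumor cells, mAb injections on days 6, 9 and 12, and the tumor was collected on day 13. The groups received an mIgG2a isotype control, an antibody against the complex of GARP and TGF-β1 with an active Fc (anti-GARP:TGF-β1 WT) or with an Fc that does not bind Fcγ receptors (FcD), anti-TGF-β (clone 1D11, against all TGF-β isoforms), Fc-silent anti-PD-1 (FcS), or anti-PD-1 FcS combined with each of the other 3 mAbs (written below as WT, FcD or anti-TGF-β + anti-PD-1). Mice are numbered 1 to 5 within a group in the order of their libraries. These are bulk tumors, so fewer T cells and less RNA per T cell cannot be told apart from the RNA alone. By flow cytometry in this experiment, the paper reported no significant difference between the groups in proportions or densities of CD4+ or CD8+ T cells. Nothing in the labels says that the mice of a group were treated in separate experiments.

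The T cell receptor binds antigen through its variable chains but has no signaling tail of its own, and the CD3 chains and CD247 carry the tyrosine motifs that transmit the signal. LCK, held on the CD4 or CD8 coreceptor, phosphorylates these motifs, ZAP70 docks on them, and ZAP70 in turn phosphorylates LAT, on which the downstream enzymes assemble. CD8 marks cytotoxic T cells and CD4 marks helper and regulatory T cells, and GARP presents latent TGF-β1 on the surface of regulatory T cells.

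Cd3g, Cd3d and Cd3e lie in 1 cluster of 40056 bp on chromosome 9 of GRCm38, in which the starts of Cd3g (44980431, minus strand) and Cd3d (44981786, plus strand) are 1355 bp apart and point away from each other. Cd8b1 and Cd8a are neighbors on chromosome 6 with 35933 bp between them, and Cd4 (124864692 to 124888221) is on the same chromosome. The 200 bases before the start are shown for the 3 CD3 genes, for Cd8a, and for both starts of Lck. Among the kinases and adaptors, Lck was the gene whose level depended least on the CD3 level. The members moved together across the tumors (r of 0.77 or more for pairs without Cd4), and any part of these bases in that was not tested. The sequences are those of RefSeq on GRCm38.p6, whose promoter table held 8 of the 10 members with 11 starts, and not Cd8b1 or Cd4. They are written 5′ to 3′ on the strand of the gene. The letters AGGAAG or their complement CTTCCT, a longer run that holds the GGAA core bound by ETS factors, are in capitals. The windows are chr9:44980432-44980631 (minus strand) for Cd3g, chr9:44981586-44981785 (plus) for Cd3d, chr9:45009612-45009811 (minus) for Cd3e, chr6:71373227-71373426 (plus) for Cd8a, and chr4:129558373-129558572 and chr4:129573642-129573841 (both minus) for Lck.
Cd3g: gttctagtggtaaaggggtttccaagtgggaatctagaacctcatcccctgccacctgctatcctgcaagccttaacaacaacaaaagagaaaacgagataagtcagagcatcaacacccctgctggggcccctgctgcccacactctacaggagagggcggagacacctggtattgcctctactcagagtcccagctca
Cd3d: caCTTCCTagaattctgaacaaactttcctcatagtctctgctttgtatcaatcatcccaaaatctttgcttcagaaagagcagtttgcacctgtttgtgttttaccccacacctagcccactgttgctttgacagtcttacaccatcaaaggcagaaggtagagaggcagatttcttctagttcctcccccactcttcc
Cd3e: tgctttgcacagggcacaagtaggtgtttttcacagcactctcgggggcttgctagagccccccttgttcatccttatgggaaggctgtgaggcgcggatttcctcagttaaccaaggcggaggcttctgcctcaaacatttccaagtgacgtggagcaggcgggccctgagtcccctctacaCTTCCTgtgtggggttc
Cd8a: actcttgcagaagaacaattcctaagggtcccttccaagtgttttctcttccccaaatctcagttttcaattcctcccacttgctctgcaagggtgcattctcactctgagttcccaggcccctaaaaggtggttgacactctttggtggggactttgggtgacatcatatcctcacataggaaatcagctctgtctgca
Lck downstream start: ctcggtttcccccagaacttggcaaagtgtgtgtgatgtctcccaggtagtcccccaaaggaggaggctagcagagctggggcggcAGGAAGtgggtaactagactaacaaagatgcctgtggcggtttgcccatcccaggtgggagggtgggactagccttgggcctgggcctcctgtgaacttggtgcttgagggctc
Lck upstream start: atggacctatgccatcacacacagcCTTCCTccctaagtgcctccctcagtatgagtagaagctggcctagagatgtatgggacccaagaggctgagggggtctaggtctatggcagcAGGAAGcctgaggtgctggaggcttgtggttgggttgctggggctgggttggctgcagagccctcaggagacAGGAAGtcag
On either strand, the ETS letters AGGAAG were present in 8 of the 11 windows of members, against 24.7% of 32851 promoters of the same length. They were absent from the windows of Cd3g and Cd8a shown, which do hold the shorter GGAA. The E-box letters CANNTG were present in 10 of the 11 windows, against 58.2% of all promoters, RUNX letters (TGTGGT) in 2 against 11.2%, GATA letters (AGATAA) in 1 against 7.8%, and the TATA box letters TATAAA in 0 against 10%. Matches of different motifs were counted separately even where they overlapped, and a match is a run of letters, not a shown binding site.

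Total counts per tumor ran from 11931730 to 20680548 (median 14030511). Libraries numbered 41 to 60 all carried Y-linked transcripts (Ddx3y 91 to 428 counts) and libraries 61 to 80 all carried Xist (784 to 12701 counts), and every group had 2 or 3 libraries in each of these parts, so that tests were repeated within them. The T cell identity of the signal was checked with Trac, Trbc1 and Trbc2, the constant segments of the receptor itself, whose summed level ran from 5.58 to 93.2 CPM (read counts scaled to library size) and was 0 in no tumor. The tumor of WT + anti-PD-1 mouse 5 stood apart from all others. It had the highest summed level of the 40 tumors for NK cell genes (701 CPM, against 169 to 269 in the rest of its group), for macrophage and monocyte genes (11600 against 2400 to 4240) and for dendritic cell genes (201 against 65.1 to 103). The NK cell list was Ncr1, Klrb1c, Klre1, Klrk1, Eomes, Nkg7, Klrd1 and Fcgr3. Whether these genes were read from NK cells or from other cells of the tumor was not tested. The counts of members and of list genes in its comparison with anti-PD-1 are given with and without it, and the part of these other cell types in them was not tested.

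**Figure D1:**
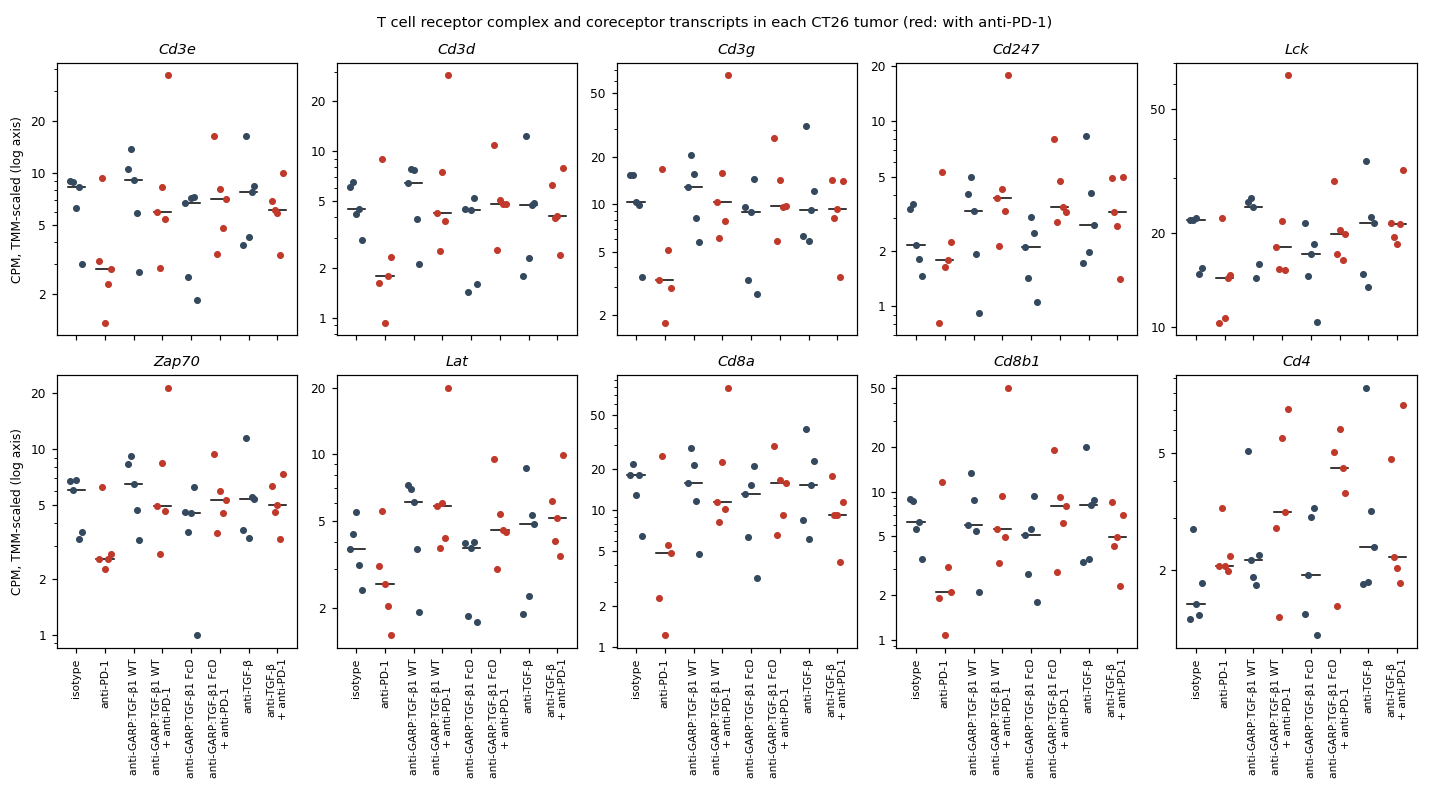
Level of each of the 10 members in each tumor, as CPM scaled by TMM on a log axis, with 1 point per mouse, the group median as a line, and groups with anti-PD-1 in red. The points of a group spread widely, 4 of the 5 anti-PD-1 mice lie low for the CD3 and CD8 genes (Cd8a 1.21 to 5.60 CPM), and mouse 5 of WT + anti-PD-1 is the highest point for every member but Cd4.

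In the isotype tumors, levels per kb of exon were highest for Lck (6.60 ± 1.31 CPM per kb, SD, n = 5), Cd8b1 (4.44 ± 1.51) and Cd8a (4.27 ± 1.65). Cd3g (3.30 ± 1.48) and Cd3d (2.66 ± 0.813) followed, and Zap70 (1.77 ± 0.573), Cd3e (1.74 ± 0.622) and Lat (1.38 ± 0.422) were lower. Cd247 (0.463 ± 0.177) and Cd4 (0.440 ± 0.144) were at the bottom. Neighbors in this order differed by less than their SD, except between Lck and Cd8b1, between Cd3d and Zap70 and between Lat and Cd247. Between tumors, the lowest and highest CPM differed 65.7-fold for Cd8a, 47.2-fold for Cd8b1 and 36.4-fold for Cd3g, but 6.98-fold for Cd4 and 6.23-fold for Lck. Without the highest tumor of each gene, these ranges were 32.7-fold, 18.7-fold and 17.6-fold, and 6.08-fold and 3.31-fold.

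The CD3 chains assemble with the receptor and are needed for its transport to the surface. Cd3e was measured at 8.96, 8.89, 6.32, 8.33 and 2.98 CPM in the 5 isotype mice, and at 3.10, 9.38, 1.36, 2.29 and 2.81 CPM with anti-PD-1. With anti-GARP:TGF-β1 WT it was 10.5, 13.7, 9.14, 5.87 and 2.67 CPM, and with the same mAb + anti-PD-1 it was 5.98, 2.82, 8.29, 5.41 and 36.7 CPM. The anti-PD-1 mice were low except mouse 2, the combination was carried to its mean of 11.8 ± 14 CPM (SD, n = 5) by mouse 5, and the ranges of all these groups overlapped. Anti-GARP:TGF-β1 FcD gave 6.68, 2.51, 7.15, 7.31 and 1.86 CPM, and FcD + anti-PD-1 gave 16.4, 3.39, 8.10, 4.79 and 7.10 CPM. Anti-TGF-β gave 3.83, 16.3, 4.25, 7.74 and 8.39 CPM, and anti-TGF-β + anti-PD-1 gave 6.90, 6.10, 5.90, 3.38 and 9.97 CPM. Within each of these groups the mice spread several-fold, and every group overlapped the isotype group. Cd3d (group means from 3.12 ± 3.31 with anti-PD-1 to 9.33 ± 10.9 CPM with WT + anti-PD-1) and Cd3g (5.96 ± 6.05 to 21 ± 24.8 CPM in the same groups) had the same lowest and highest groups.

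Of the signaling members, Cd247 had its lowest mean in the FcD group (2.03 ± 0.801 CPM) and its highest with WT + anti-PD-1 (6.26 ± 6.47 CPM). In the isotype group Cd247 was 3.34, 3.59, 2.15, 1.81 and 1.45 CPM, and in that combination 3.87, 2.11, 4.30, 3.29 and 17.7 CPM, so 4 of the 5 treated values lay within a range of 2.11 to 4.30 CPM that overlapped the isotype mice. Of its 5329 exonic bases, 3007 overlap exons of Pou2f1 on the opposite strand, and the strand setting of the counting is not given in the sources used here. Pou2f1 was at 13.6 to 35.2 CPM, and its log2 fold change was 0.05 ± 0.0871 (SE) for the average effect of anti-PD-1 (edgeR adjusted p = 0.779). Zap70 had group means from 3.29 ± 1.68 CPM (anti-PD-1) to 8.46 ± 7.57 CPM (WT + anti-PD-1), and Lat from 2.95 ± 1.55 to 7.96 ± 6.83 CPM in the same groups.

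Lck kept a larger share of its level in tumors low in CD3 than Zap70 did. Lck was measured at 10.3 to 64.0 CPM, and in the 10 tumors with the lowest sum of Cd3e, Cd3d and Cd3g (4.07 to 11.5 CPM) it still had a mean of 14.3 CPM, with none under 10.3 CPM. In the 10 tumors with the highest sum (30.3 CPM or more) its mean was 29.8 CPM, a 2.08-fold difference, where Cd3g differed 6.16-fold, Cd8a 6.32-fold, Zap70 3.37-fold and Lat 3.31-fold. A line of Lck on the CD3 sum over the 40 tumors met the axis at 10.5 ± 0.653 CPM (SE), which is 55.5% of the median Lck level, and at 11 ± 0.877 CPM without the highest tumor. The same line met the axis at 0.167 ± 0.665 CPM for Cd8a, 0.275 ± 0.176 CPM for Cd247, 1.73 ± 0.192 CPM for Zap70, 1.34 ± 0.264 CPM for Lat and 1.65 ± 0.338 CPM for Cd4. As a share of the median level this was 35.9% for Zap70, 32.6% for Lat and 74.4% for Cd4. For Cd4, the line met the axis at 0.940 ± 0.421 CPM without the highest tumor. Since the tumors for this description were ordered by their CD3 level, no test was made.

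**Figure D2:**
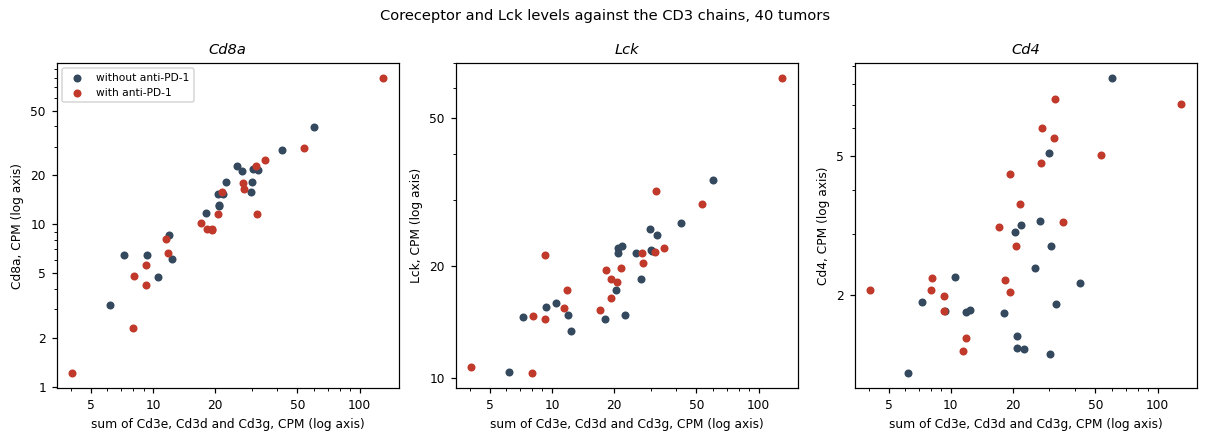
Level of Cd8a, Lck and Cd4 (CPM, log axes) against the summed level of the 3 CD3 chains in the 40 tumors, with tumors of mice given anti-PD-1 in red. Cd8a follows the CD3 chains over their whole range, Lck levels off between 10.3 and 21.4 CPM in the 10 tumors with the lowest CD3 level, and Cd4 is scattered.

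The CD8 coreceptor is a dimer of the Cd8a and Cd8b1 products. Cd8a was measured at 18.2, 22.0, 12.9, 18.2 and 6.51 CPM in the isotype mice and at 2.29, 24.9, 1.21, 5.60 and 4.83 CPM with anti-PD-1. The 4 low anti-PD-1 mice lay below all isotype mice, and mouse 2 lay above them. With WT + anti-PD-1, Cd8a was 11.6, 8.17, 22.8, 10.2 and 79.7 CPM, so that mouse 5 was 3 or more times as high as any other of the group. The group means of Cd8a ran from 7.77 ± 9.75 CPM (anti-PD-1) to 26.5 ± 30.3 CPM in that combination, with 18.5 ± 13.5 CPM (anti-TGF-β) as the next highest, and those of Cd8b1 from 3.95 ± 4.33 CPM (anti-PD-1) to 14.7 ± 20.1 CPM (WT + anti-PD-1), the same lowest and highest groups.

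Cd4 was the least abundant coreceptor, with 18 to 113 counts per tumor. It was 1.36, 2.76, 1.53, 1.41 and 1.80 CPM in the isotype mice and 2.07, 3.24, 2.07, 1.99 and 2.24 CPM with anti-PD-1, where all 5 mice were above 4 of the 5 isotype mice. It was 5.04, 1.51, 6.01, 4.45 and 3.65 CPM with FcD + anti-PD-1, 2.77, 1.39, 5.63, 3.14 and 7.03 CPM with WT + anti-PD-1, and 4.77, 2.21, 2.04, 1.81 and 7.27 CPM with anti-TGF-β + anti-PD-1. In the FcD and WT combinations 4 of the 5 mice were above all isotype mice, and the ranges still overlapped. Anti-TGF-β alone gave 1.79, 8.34, 1.82, 3.17 and 2.39 CPM, with mouse 2 far above the rest.

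The design asked how blocking TGF-β1 release from GARP-bearing cells, with or without PD-1 blockade, changed the tumors, and each mAb was set against the isotype control and each combination against its components. With edgeR's quasi-likelihood test over 14760 genes in a model of all 40 mice, 0 of the 10 members had an adjusted p under 0.05 in any of the 20 comparisons, as was so with DESeq2's Wald test. Among all genes, adjusted calls were 0% in every comparison except anti-TGF-β + anti-PD-1 against anti-PD-1 (1 gene, 0.00678%), the average effect of anti-TGF-β (1 gene, 0.00678%) and the average effect of anti-PD-1 (87 genes, 0.589%), so the members did not stand apart from the background in that count. Comparisons with the same control group share its mice. The counts that follow are of members with an unadjusted p under 0.05. Beside them stands the share of all genes tested that was called higher or, where so stated, called in either direction.

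Against the isotype control, no member reached an unadjusted p of 0.05 with anti-PD-1 (0.955% of all genes in either direction), anti-GARP:TGF-β1 WT (0.969%) or FcD (0.474%). With anti-PD-1 the log2 fold change was below 0 for 9 of 10 members, with a median of -0.66 and a range of -0.99 (Cd8a, SE 0.662) to 0.39 (Cd4, SE 0.457). The absence of calls rested on mouse 2 of the anti-PD-1 group, the highest of its group. Without it, 6 members (Cd3e, Cd3d, Cd3g, Zap70, Cd8a and Cd8b1) were called lower than isotype at an unadjusted p under 0.05, against 1.26% of genes called in either direction, and 0 after adjustment (edgeR). With anti-TGF-β only Cd4 was called higher (log2 fold change 0.98 ± 0.453, unadjusted p = 0.0374, adjusted p = 1, edgeR), against 1.77% of genes. With FcD + anti-PD-1 it was again Cd4 (1.22 ± 0.452, adjusted p = 0.24, edgeR), against 10.7%, and with anti-TGF-β + anti-PD-1 Cd4 (1.03 ± 0.452, adjusted p = 0.205, edgeR), against 8.49%. With each mouse left out in turn, the call of Cd4 held throughout for FcD + anti-PD-1. It was lost without anti-TGF-β mouse 2 or any of isotype mice 1, 3, 4 and 5 for anti-TGF-β, and without anti-TGF-β + anti-PD-1 mouse 1 or 5 or isotype mouse 1, 3 or 4 for that combination. With WT + anti-PD-1 there were 3 members, Cd4 (1.17 ± 0.451), Cd247 (1.34 ± 0.521) and Lat (1.06 ± 0.443), with adjusted p of 0.169 to 0.186 (edgeR), against 13.2% of genes called higher. Without mouse 5 of that combination 0 members were called (5.85% of genes in either direction), and without its mouse 2 there were 5 (28.3%). With all 40 mice in the model, no member was called lower in any comparison at an unadjusted p under 0.05.

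In WT + anti-PD-1 compared with the anti-PD-1 group, 9 of 10 members were called higher, against 11.2% of all genes, with a median log2 fold change of 1.5 over the members and 0.00 over all genes tested. The values ran from 0.89 ± 0.309 (SE) for Lck to 1.89 ± 0.668 for Cd8b1, with Cd3e at 1.64 ± 0.581, Cd3g at 1.81 ± 0.629, Cd8a at 1.76 ± 0.666 and Lat at 1.43 ± 0.450, and adjusted p of 0.231 to 0.232 for these 9 (edgeR). Cd4, at 0.78 ± 0.443 (adjusted p = 0.347, edgeR), was the member not called. The 9 move together in each tumor and are not 9 separate observations. With only the 10 mice of these 2 groups in the model, 3 members were called, Cd3g, Zap70 and Lat (6.89% of genes in either direction). Both sides of this comparison rest on single mice. Without mouse 5 of the combination, 0 members had an unadjusted p under 0.05 (5.42% of all genes in either direction, 2.15% higher), and the median log2 fold change of the members was 0.55. Without mouse 2 of the anti-PD-1 group, the median was 2.13 and 8 members passed an adjusted p of 0.05, all but Lck (0.0511) and Cd4 (0.218), where 3.60% of all genes passed (edgeR). Without both mice, chosen after seeing the data, 8 members had an unadjusted p under 0.05, against 14.1% of all genes in either direction, and 0 an adjusted one, with a median log2 fold change of 1.15. Mouse 2 of the anti-PD-1 group also had the highest summed level of skeletal muscle genes of the 40 tumors (159 CPM, against 2.36 to 6.06 in its group). It was also above the rest of its group for NK cell genes (273 against 94.5 to 196), macrophage and monocyte genes (4000 against 1990 to 2950), regulatory T cell genes (24.4 against 12.0 to 17.0) and mast cell and platelet genes (240 against 52.2 to 103), whose part in the comparison was not tested.

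**Figure D3:**
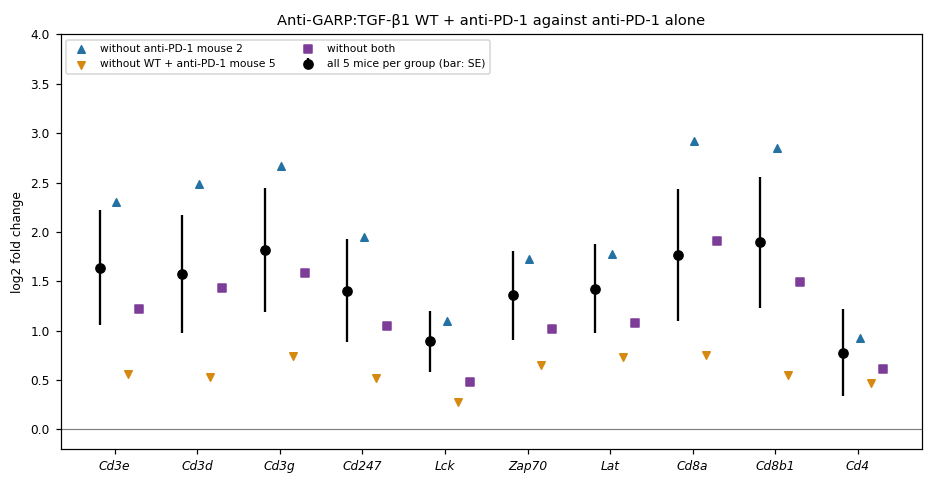
Log2 fold change of each member in WT + anti-PD-1 over anti-PD-1 alone, with all 5 mice per group (circles, bar SE) and without the mice named in the key. The median over the members moves from 1.5 to 0.55 without combination mouse 5 and to 2.13 without anti-PD-1 mouse 2.

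The other combinations were less often called against anti-PD-1, a difference that was not itself tested. FcD + anti-PD-1 had 0 members called (10.7% of genes in either direction, members' median log2 fold change 0.89), and anti-TGF-β + anti-PD-1 had 2, Lck (0.64 ± 0.310) and Lat (0.96 ± 0.451), against 7.0% of genes called higher. Here too anti-PD-1 mouse 2 decided the counts. Without it all 10 members were called higher with FcD + anti-PD-1 (20.2% of genes in either direction) and 7 with anti-TGF-β + anti-PD-1 (15.6%), with 0 after adjustment in both (edgeR). Without mouse 2 of FcD + anti-PD-1, 5 members were called (25.2% of genes in either direction), and the count for the anti-TGF-β combination was 0 or 1 without any other anti-PD-1 mouse or without combination mouse 1, 4 or 5. Adding anti-PD-1 to FcD called 2 members higher, Cd247 (1.14 ± 0.528) and Cd4 (0.93 ± 0.446), against 13.0% of genes, a count that was 0 or 1 without FcD mouse 1, 2 or 5 or combination mouse 1, 3 or 4. Adding it to anti-GARP:TGF-β1 WT or to anti-TGF-β called 0 members, against 29.5% and 9.84% of genes in either direction. Averaged over both PD-1 settings, anti-GARP:TGF-β1 WT had 9 members called higher, all but Cd8a (0.93 ± 0.461, unadjusted p = 0.0508), against 4.26% of genes, with log2 fold changes of 0.51 (Lck) to 1.02 (Cd3g) and adjusted p of 0.784 throughout (edgeR). Without mouse 5 of the WT combination, only Lat was called (1.96% of all genes in either direction). The count was 5 without anti-PD-1 mouse 1 (4.53%) or mouse 3 (3.65%) and 4 without WT mouse 2 (4.57%), with these shares also in either direction. Averaged in the same way, FcD had 0 members called (2.47% of genes in either direction) and anti-TGF-β had Cd4 (0.81 ± 0.317, adjusted p = 0.278, edgeR), against 6.49% called higher, and 7 members without anti-PD-1 mouse 2 (15.0% in either direction). The average effect of anti-PD-1 over the 4 backgrounds called Cd4 (0.49 ± 0.222, adjusted p = 0.17, edgeR), against 13.3% of genes called higher, and without anti-TGF-β mouse 2 the adjusted p of Cd4 was 0.0328, where 15.1% of all genes passed. With each mouse left out in turn, the number of members with an unadjusted p under 0.05 for this effect ran from 0 to 2. The interactions of each mAb with anti-PD-1 called 0 members and 0% of genes after adjustment, and the members' median was 1.22 for WT, 1.27 for FcD and 0.48 for anti-TGF-β on the log2 scale. Without anti-PD-1 mouse 2, 9 members had an unadjusted p under 0.05 in the interaction for WT (18.5% of genes in either direction) and 9 in that for FcD (11.1% in either direction).

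The members rose and fell together from tumor to tumor, Cd4 less closely than the others. Across the 40 mice the log2 CPM of Cd3e was correlated with Cd3d (Pearson r = 0.963, Spearman rho = 0.949), Cd3g (0.959 and 0.935) and Cd8b1 (0.956 and 0.920). The correlation was lower with Zap70 (0.921 and 0.897), Lck (0.878 and 0.868), Lat (0.878 and 0.833) and Cd247 (0.860 and 0.822), and lowest with Cd4 (0.613 and 0.533). These 8 values of r, Cd3e with Cd8a (0.936 and 0.926) and Cd8a with Cd8b1 (0.965 and 0.966) and Cd4 (0.535 and 0.487) were 11 pairs tested, with permutation p adjusted over the pairs of 1.22e-05 to 0.00037 for r, most of them at the smallest value that 100000 permutations give. Without the 2 mice farthest from the median of the x axis (anti-PD-1 mouse 3 and WT combination mouse 5), r of Cd3e was 0.945 with Cd3d, 0.827 with Lck and 0.575 with Cd4. With each group's mean removed, r of Cd3e was 0.964 with Cd3d and 0.667 with Cd4, and within libraries 41 to 60 and 61 to 80 it was 0.577 and 0.659 with Cd4. Over all 36 pairs without Cd4, r ran from 0.767 to 0.968, and over the 9 pairs with Cd4 from 0.535 to 0.750.

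Outside the members, the genes whose log2 CPM was among the most correlated with the mean of Cd3e, Cd3d and Cd3g over the 40 mice were Trac (r = 0.955), Trbc2 (0.943), Cd27 (0.932), Pdcd1 (0.929), Sh2d2a (0.925), Cxcr6 (0.921), Lag3 (0.917), Gimap3 (0.905) and Themis (0.902). Trac and Trbc2 are constant segments of the receptor itself, Pdcd1 encodes PD-1, the target of one of the mAbs, and Lag3 another inhibitory receptor. Ranked in the same way among 14757 genes, Cd8b1 was at place 1, Cd8a at 3, Zap70 at 7, Lck at 17, Lat at 19 and Cd247 at 23, but Cd4 at 960 (r = 0.642). These are descriptions over the same 40 libraries.

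The ratio of Cd8a to Cd4 compares the coreceptor transcripts of the main T cell lineages within a tumor, and its geometric mean over the mice was highest in the isotype group and lowest with anti-PD-1 alone. With counts pooled over the mice of a group, anti-TGF-β + anti-PD-1 (3.16) was below anti-PD-1 (3.78). Per kb of exon, the ratio was 14.8, 8.81, 9.37, 14.2 and 4.01 in the 5 isotype mice (geometric mean 9.14). It was 1.23, 8.52, 0.650, 3.12 and 2.40 with anti-PD-1 (geometric mean 2.19), so that 4 of 5 mice were below every isotype mouse. In anti-PD-1 mouse 3 the ratio rested on 17 Cd8a and 29 Cd4 counts, and in isotype mouse 1 on 294 and 22. Anti-GARP:TGF-β1 WT gave 3.46, 14.6, 12.7, 7.37 and 2.34 (geometric mean 6.37), and WT + anti-PD-1 gave 4.64, 6.53, 4.48, 3.58 and 12.6 (5.67). Anti-TGF-β gave 5.29, 5.27, 3.74, 5.38 and 10.6 (5.63), and anti-TGF-β + anti-PD-1 gave 4.19, 4.66, 5.01, 2.57 and 1.76 (3.35). These groups overlapped the isotype group, with 2 mice below all of it for WT and for anti-TGF-β + anti-PD-1 and 1 for each of the other two. FcD gave 10.3, 3.71, 5.62, 7.23 and 2.96 (5.32), and FcD + anti-PD-1 gave 6.48, 4.88, 3.06, 2.32 and 4.8 (4.01), again with 2 mice each below every isotype mouse. The SD of the log2 ratio within a group ran from 0.55 to 1.39, and neighbors in the order of the 8 geometric means differed by less than that SD.

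On the log2 scale the Cd8a to Cd4 ratio was lower than isotype by 2.06 with anti-PD-1 (difference -2.06 ± 0.708, SE, exact permutation p = 0.0159, adjusted over 7 comparisons 0.074). The difference was -1.45 ± 0.443 with anti-TGF-β + anti-PD-1 (exact permutation p = 0.0317, adjusted 0.074) and -1.19 ± 0.428 with FcD + anti-PD-1 (p = 0.0317, adjusted 0.074, exact permutation). All 5 mice of each of these 3 groups were below the isotype median. For FcD + anti-PD-1 the exact permutation p was 0.0556 to 0.0635 without isotype mouse 1, 2, 3 or 4 or combination mouse 3 or 4. The other 4 groups had differences of -0.52 to -0.78 with exact permutation p of 0.135 to 0.381. Without isotype mouse 5 the exact permutation p fell to 0.0476 for FcD (difference -1.08) and 0.0317 for anti-TGF-β (-1.0), and with a mouse left out the WT difference ran from -0.82 (without isotype mouse 5) to -0.16 (without WT mouse 5). None of the 7 passed the adjustment, the smallest p that the splits of 5 against 5 can give is 0.00794, and the tests were 2-sided. Adding anti-GARP:TGF-β1 WT to anti-PD-1 gave a difference of 1.38 ± 0.698 (exact permutation p = 0.0873), and 0.00794 without anti-PD-1 mouse 2 (difference 1.86). The difference was 0.94 without anti-PD-1 mouse 3 and 1.09 without combination mouse 5 (exact permutation p of 0.175 and 0.183).

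Over all 8 groups the log2 Cd8a to Cd4 ratio differed (permutation p = 0.0256, 100000 permutations). The average effect of anti-PD-1 over its 4 backgrounds, permuted within each background, was -0.85 ± 0.272 (SE) on the log2 scale, a 0.556-fold ratio (permutation p = 0.00551). The difference was -2.06 beside the isotype control, -0.75 beside anti-TGF-β, -0.41 beside FcD and -0.17 beside WT. The direction beside WT was not stable, with -0.65 in libraries 41 to 60 and 0.51 in libraries 61 to 80, and it was above 0 without WT mouse 2 (0.13), WT mouse 3 or combination mouse 4. Beside anti-TGF-β the difference was -0.09 in libraries 41 to 60 and -1.42 in libraries 61 to 80. Of the mice, 17 of the 20 with anti-PD-1 were below the mean of their matched group. The average effect was -0.93 in libraries 41 to 60 and -0.76 in libraries 61 to 80, and p was 0.00725 with labels permuted within these parts. With Cd8b1 in place of Cd8a the effect was -0.56 (permutation p = 0.0374). For Cd8a to Cd4 the effect ran from -0.97 to -0.74 with each mouse left out. The ratio moved with the CD3 level within groups (slope 0.60 log2 units per log2 unit, r = 0.643), and at 1 common CD3 level, an adjustment chosen after seeing the data, the effect of anti-PD-1 was -0.81 (permutation p = 0.0004). The CD3 level was measured after treatment and Cd8a followed it closely (r = 0.952). This value therefore cannot show what the ratio owes to the CD3 level. Regulatory T cell genes, whose cells carry CD4, had a median log2 fold change of 0.52 for the average effect of anti-PD-1, with 4 of 6 at an unadjusted p under 0.05 and 0 adjusted (Foxp3 0.59 ± 0.236, adjusted p = 0.127, edgeR), where 13.3% of all genes were called higher. Dendritic cell genes had 3 of 8 and macrophage and monocyte genes 5 of 8, with 0 adjusted. Without WT + anti-PD-1 mouse 5 these counts were 3 of 6, 1 of 8 and 5 of 8, against 9.29% of all genes called higher. Without anti-TGF-β mouse 2 they were 6 of 6, 5 of 8 and 7 of 8, with 4, 3 and 5 adjusted. Of all genes, 18.8% were called higher in that setting and 15.1% passed the adjustment in either direction. The part of these cells in the ratio was not tested.

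**Figure D4:**
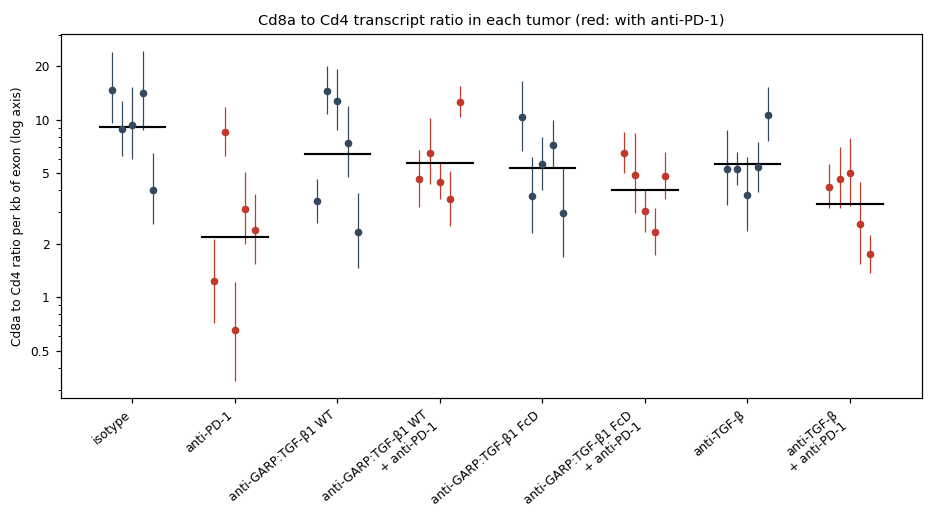
Ratio of Cd8a to Cd4 counts per kb of exon in each tumor (log axis), with exact 95% binomial intervals that cover counting error only, group geometric means as lines, and groups with anti-PD-1 in red. The isotype mice sit between 4.01 and 14.8, and 4 of the 5 anti-PD-1 mice lie between 0.650 and 3.12.

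Ratios among the other members tell whether the parts of the complex kept their proportions. With anti-PD-1, Cd247 rose relative to Cd3e, Lat rose relative to Cd3e, Cd8b1 rose relative to Cd8a, Cd4 rose relative to Cd3e, and Cd3d rose slightly relative to Cd3e. The average effect on the log2 Cd247 to Cd3e ratio was 0.57 ± 0.130 (SE), a 1.48-fold rise (permutation p = 0.0001, adjusted over 9 ratios 0.0009). It was above 0 in 4 of 4 backgrounds and in 18 of 20 mice. The ratio of counts had a geometric mean of 0.356 in the isotype group and 0.649 with anti-PD-1, 0.360 with anti-GARP:TGF-β1 WT and 0.595 with WT + anti-PD-1. In the WT pair of groups the values did not overlap, with 0.333 to 0.388 in the 5 mice without and 0.484 to 0.748 in the 5 mice with anti-PD-1. The other 3 pairs overlapped, with 0.221 to 0.494 and 0.271 to 1.21 beside the isotype control, 0.318 to 0.579 and 0.460 to 0.846 beside FcD, and 0.331 to 0.532 and 0.422 to 0.716 beside anti-TGF-β. The log2 difference was 0.87 beside the isotype control, 0.73 beside WT, 0.47 beside FcD and 0.19 beside anti-TGF-β. The effect was 0.59 in libraries 41 to 60 and 0.60 in libraries 61 to 80.

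The Lat to Cd3e ratio differed by 0.46 ± 0.132 on the log2 scale, 1.37-fold (permutation p = 0.00111, adjusted 0.00429, 16 of 20 mice), with 0.68 in libraries 41 to 60 and 0.24 in libraries 61 to 80. The Cd8b1 to Cd8a ratio differed by 0.29 ± 0.0865, 1.22-fold (permutation p = 0.00143, adjusted 0.00429, 17 of 20 mice). Its geometric mean without and with anti-PD-1 was 0.437 and 0.610 beside the isotype control, 0.433 and 0.555 beside FcD, 0.429 and 0.479 beside WT, and 0.471 and 0.524 beside anti-TGF-β. The Cd4 to Cd3e ratio differed by 0.62 ± 0.220, 1.54-fold (permutation p = 0.01, adjusted 0.0225, 15 of 20 mice). The Cd3d to Cd3e ratio differed by 0.18 ± 0.0795, 1.14-fold (permutation p = 0.0248, adjusted 0.0447). The unadjusted permutation p was over 0.05 without isotype mouse 4 (0.0522) and without anti-PD-1 mouse 2, and the difference was 0.13 (permutation p = 0.0853) with the sum of Cd3e and Cd3g as denominator. With the sum of the 3 CD3 chains in place of Cd3e, a choice made after seeing the data, the effect was 0.49 for Cd247 (p = 0.00029), 0.38 for Lat (p = 0.00844) and 0.54 for Cd4 (p = 0.0251), by permutation. With the same denominator the effect for Cd8a was -0.30 (permutation p = 0.0066), where relative to Cd3e alone the unadjusted permutation p was 0.0983. For Cd3g (0.08 ± 0.0971), Lck (0.19 ± 0.178), Zap70 (0.15 ± 0.129) and Cd8a (-0.23 ± 0.127) relative to Cd3e, the permutation p adjusted over the 9 ratios was 0.147 to 0.425. Differences among all 8 groups did not pass the adjustment over the 9 ratios for any of them (adjusted permutation p of 0.0731 to 0.82, the lowest for Cd247 to Cd3e).

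CD247 also couples to receptors of NK cells, and LAT is made in NK cells, mast cells and platelets. For the average effect of anti-PD-1, 5 of 8 NK cell genes had an unadjusted p under 0.05, 0 an adjusted one, with a median log2 fold change of 0.37, where 13.3% of all genes were called higher and 0.589% passed the adjustment. The summed level of the NK cell list was 154 to 216 CPM with the isotype control and 94.5 to 273 with anti-PD-1, 167 to 230 with WT and 169 to 701 with WT + anti-PD-1 (169 to 269 without mouse 5). It was 130 to 205 CPM with FcD and 206 to 359 with FcD + anti-PD-1, which did not overlap, and 140 to 379 with anti-TGF-β and 217 to 302 with anti-TGF-β + anti-PD-1. In the FcD pair the same was so for macrophage and monocyte genes (2080 to 3530 and 3590 to 5750 CPM) and dendritic cell genes (39.8 to 86.4 and 91.7 to 118 CPM). Mast cell and platelet genes overlapped (58.6 to 107 and 71.6 to 185 CPM), and the share of all genes without overlap was not counted. Of the mast cell and platelet genes, 4 of 7 had an unadjusted p under 0.05 and 1 an adjusted p under 0.05, with a median of 0.69. Without WT + anti-PD-1 mouse 5, 3 NK cell genes and 4 mast cell and platelet genes had an unadjusted p under 0.05, and 0 of either an adjusted one, where 9.29% of all genes were called higher. Without anti-TGF-β mouse 2 these counts were 6 and 4, with 3 and 4 adjusted, where 18.8% of all genes were called higher and 15.1% passed the adjustment in either direction. No gene of the NK or the mast cell and platelet list was at 0 throughout a group. Their part in the shifted ratios was not tested.

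**Figure D5:**
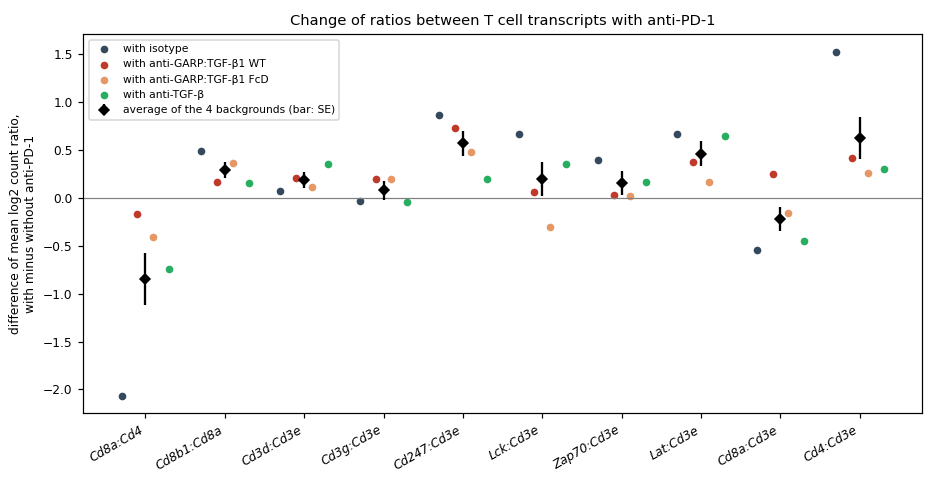
Difference of the mean log2 count ratio between tumors with and without anti-PD-1, for 10 ratios between members, as the average of the 4 backgrounds (diamonds, bar SE) and in each background (colored points). Cd247, Lat, Cd8b1 and Cd4 relative to Cd3e or Cd8a lie above 0 in all 4 backgrounds, as do Cd3d to Cd3e and the uncalled Zap70 to Cd3e, and Cd8a to Cd4 lies below 0 in all 4.

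The rest of the receptor pathway was taken from lists of textbook members. Of 17 proximal kinases and adaptors tested, 9 had an unadjusted p under 0.05 for a higher level with anti-PD-1 on average (median log2 fold change 0.41), among them the LAT partner Lcp2 (0.59 ± 0.193, adjusted p = 0.0782, edgeR) and the LCK relative Fyn (0.34 ± 0.118, adjusted p = 0.0909, edgeR). Of 12 accessory and costimulatory receptors, 6 did (median 0.53), among them Icos (0.92 ± 0.346, adjusted p = 0.107, edgeR) and Cd2 (0.54 ± 0.255, adjusted p = 0.198, edgeR). None of the 3 constant segments did (median 0.10, Trac 0.10 ± 0.263), 4 of 14 negative regulators did (median 0.26), and of 10 early genes induced by the receptor 1 was called higher and 2 lower (median 0.10). None of these 5 lists had a gene with an adjusted p under 0.05, and 13.3% of all genes were called higher in that comparison. Neutrophil genes were called higher in 4 of 5 (median 1.0, 0 adjusted). The calls moved with single mice, a check chosen after seeing the data. Without WT + anti-PD-1 mouse 5, accessory receptors were called in 3 of 12 (9.29% of all genes called higher). Without anti-TGF-β mouse 2, where 15.1% of all genes passed the adjustment, 7 kinases and adaptors, 6 accessory receptors, 4 negative regulators and 2 early genes had an adjusted p under 0.05 (edgeR).

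For WT + anti-PD-1 against anti-PD-1 alone, where 11.2% of all genes were called higher, the constant segments were called higher in 3 of 3 (Trac 1.28 ± 0.533, Trbc1 1.24 ± 0.384, Trbc2 1.46 ± 0.580), the kinases and adaptors in 14 of 17 (median 1.06, Fyn 0.64 ± 0.237), the negative regulators in 11 of 14 (median 0.64), and the accessory receptors in 8 of 12 (median 1.27, Icos 1.82 ± 0.657). Of the 10 early genes 2 were called higher and 1 lower (median 0.22). The lowest adjusted p in each of these lists was 0.231 (edgeR). The median was 0.79 for regulatory T cell genes (4 of 6 called) and 0.81 for NK cell genes (7 of 8), and 0.78 for macrophage and monocyte genes (7 of 8), against 1.5 for the members. These counts rested on mouse 5 of the combination. Without it, a choice made after seeing the data, 1 of the 3 constant segments and 0 genes of the other lists named here were called, against 2.15% of all genes called higher, and the medians were 0.44 for the constant segments, 0.33 for the kinases and adaptors, 0.40 for the accessory receptors and 0.39 for NK cell genes. Without anti-PD-1 mouse 2, 15 of 17 kinases and adaptors, 11 of 12 accessory receptors and 6 of 8 NK cell genes were called higher, against 15.2% of all genes. Then 2 constant segments, 12 kinases and adaptors, 3 negative regulators, 5 accessory receptors and 3 NK cell genes had an adjusted p under 0.05 (edgeR), against 3.60% of all genes. The same was so for 3 of 8 macrophage and monocyte genes, 3 of 7 mast cell and platelet genes and 1 of 5 neutrophil genes. It was so for 0 regulatory T cell and 0 dendritic cell genes.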

How the data were processed

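Whole CT26 tumors of 40 mice were sequenced. The authors made stranded mRNA libraries, and per the labels used STAR 2.5.3a, SAMtools 1.6 and HTSeq 0.9.1 with GRCm38. The annotation release and strand setting are not given in the sources used here. The deposited values are raw read counts per gene, without normalization, and 0 columns were left out. Replicates are separate mice, and p-values measure the spread between them. By median count, counting error alone limits Cd4 most (median 32.5, range 18 to 113 counts). The lowest single count was that of Cd247 (11).

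Counts were scaled by TMM and tested with the quasi-likelihood test of edgeR 4.0.16 (R 4.3.3) in a single model of all mice, after filterByExpr (14760 genes), with Benjamini-Hochberg adjusted p over all of them. CPM is TMM-scaled. SE of a log2 fold change is the fold change over the square root of F. Ratios are log2 of counts with 0.5 added, tested by 2-sided permutation (numpy 2.4.6, scipy 1.17.1), exact over all splits for pairs of groups and with 100000 draws otherwise. Correlations used log2 CPM with a prior count of 2. Exon lengths and positions are from GENCODE on GRCm38. Methods were tested on simulated data. The text names all members, single list genes where an account turns on them (the lists are otherwise given as counts), and the 10 genes most correlated with the CD3 chains, of which 1 is not reported here. Members and lists were chosen with earlier results of these data known. Alternatives were DESeq2 1.42.0 (size factors or Wald test), no filter, only the compared groups, the library part as covariate or stratum, 0 or 5 added to counts, other ratios and normalizations, and each mouse left out. The denominator of CD3 chains, the common CD3 level and leaving out both mice that stand apart, or single such mice for the lists, were added after seeing the data.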

Additional observations from a re-analysis of the deposited data

Results flagged for a closer look

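A mouse stood far from the other 4 of its group in 20 of 88 sets of 5 values (10 members and the Cd8a to Cd4 ratio in 8 groups). The rule has an expected rate of about 1 in 20, which was not checked for skewed values such as CPM. Every flagged mouse was the highest of its group, so an excess over chance is not shown. Members move together within a tumor, so these values in a mouse are not independent. Mouse 5 of WT + anti-PD-1 was the highest of its group in 8 of them, with Cd3e at 36.7 CPM, Cd3d at 28.6, Cd3g at 64.9, Cd247 at 17.7, Lck at 64.0, Lat at 20, Cd8a at 79.7 and Cd8b1 at 50.5 CPM. Mouse 2 of the anti-PD-1 group was the highest in 7, with Cd3e at 9.38 CPM, Cd3d at 8.97, Cd3g at 16.6, Zap70 at 6.28, Cd8a at 24.9, Cd8b1 at 11.6 and Cd4 at 3.24 CPM. Mouse 2 of the anti-TGF-β group was the highest in 3, with Cd3g at 31.3 CPM, Zap70 at 11.5 and Cd4 at 8.34 CPM. The others were Lck at 31.8 CPM in mouse 5 of anti-TGF-β + anti-PD-1 and Cd4 at 5.09 CPM in mouse 1 of anti-GARP:TGF-β1 WT. The Cd8a to Cd4 ratio had no such mouse in any group.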

How the results depend on the processing

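The 32 log2 fold changes of single members checked, those in the comparisons of WT + anti-PD-1 with anti-PD-1 and of the average WT effect and those with an unadjusted p under 0.05 elsewhere, kept their direction under all 632 alternative values. Of 1014 alternative values of the 43 main results, 992 kept their direction and their side of the threshold, which for ratios is an unadjusted p of 0.05. The main results are the ratios and the counts of members with an adjusted p under 0.05, which were 0 and could only rise. Counts at an unadjusted p are not among them. That of WT + anti-PD-1 against anti-PD-1 went from 9 to 0 without combination mouse 5. With a mouse left out in turn, the number of members with an adjusted p under 0.05 ran from 0 to 8 for WT + anti-PD-1 against anti-PD-1 and from 0 to 1 for the average effect of anti-PD-1. In the same way the log2 Cd8a to Cd4 difference ran from -0.53 to 0.13 for WT + anti-PD-1 against WT (reversed without WT mouse 2 or 3 or combination mouse 4), from -1.08 to -0.56 for FcD, from -1.49 to -0.99 for FcD + anti-PD-1 (exact permutation p of 0.0159 to 0.0635, over 0.05 in 6 of 10) and from -1.0 to -0.53 for anti-TGF-β against isotype, from 0.94 to 1.86 for WT + anti-PD-1 against anti-PD-1, and from -0.90 to -0.52 for anti-TGF-β + anti-PD-1 against anti-TGF-β. The average effect of anti-PD-1 ran from 0.16 to 0.21 for Cd3d to Cd3e and from -0.28 to -0.16 for Cd8a to Cd3e. With the sum of CD3 chains these were 0.13 (no longer under 0.05) and -0.30 (permutation p = 0.0066), and with Cd8b1 to Cd4 the FcD + anti-PD-1 difference from isotype was -0.84 (exact permutation p = 0.0714). The number of members with an unadjusted p under 0.05 in WT + anti-PD-1 against anti-PD-1 was 3 with only these 10 mice in the model. The cause of these shifts was not tested. No paired analysis was possible because the replicate numbers carry no pairing. Counts of 18 to 113 for Cd4 limit its ratios.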
